A study of Mus musculus with 28 samples.

Results

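The effect of trichostatin A (TSA) on hippocampal RNA was measured in wild-type mice kept in their standard cage, by comparing 3 arrays of TSA-injected mice with 3 arrays of vehicle-injected mice. These 6 arrays, of 28 in the series, were chosen by genotype, housing and injection as the labels give them, and not by any measured value. TSA arrays carry replicate numbers 1, 2 and 3 and vehicle arrays 3, 4 and 5; they were taken as pairs in that order, so that pair 1 is TSA replicate 1 with vehicle replicate 3. The 4 arrays of naive, uninjected mice were left out.

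TSA mice received 2.4 mg/kg of the drug and hippocampi were taken 75 min later; vehicle mice received the DMSO and saline mixture alone. All were C57/DBA F1 hybrid females of 3 months, wild-type littermates of cbp+/- mice, and none of the 6 arrays is of mice from the novelty test. The RNA on an array came from a pool of 3 to 4 mice (4 in the extraction protocol), which hides the spread between single animals. The other 18 injected arrays (TSA and vehicle in cbp+/- mice of the standard cage, in wild-type mice after 1 h of novelty, and in cbp+/- mice after 1 h of novelty, 3 arrays of each) serve as a separate measurement of the same drug. A whole hippocampus holds many cell types, so fewer cells of a type and less RNA per cell cannot be told apart in any value below.

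TSA is a hydroxamic acid that blocks the zinc-dependent histone deacetylases, the enzymes that take acetyl groups off lysines of histones and of other proteins. Acetyl groups are placed by acetyltransferases such as CBP (Crebbp) and p300 (Ep300), and are bound by bromodomain proteins. Histone deacetylases act within corepressor complexes such as CoREST, SIN3, NuRD and NCoR, which DNA-binding repressors including REST bring to genes. In mice, deacetylase inhibitors given by injection raise histone acetylation in the brain and have been used in studies of memory and of CBP deficiency.

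Expression values are log2 RMA levels, on which a difference of 1 is a doubling, and they rank a gene between arrays but not one gene against another. Differences are TSA minus vehicle, the mean of the 3 paired differences, with the standard error (SE) of a limma fit over all 24 injected arrays. Of 19938 named genes, 2 passed an adjusted p of 0.05. One was higher and one lower, which is 0.00502% of the genes in each direction. At an unadjusted p under 0.05 there were 570 genes higher and 495 lower, 5.34% of the genes together. The median change over all genes was 0.00, with an SD of 0.12 across genes, and the median SE of a gene was 0.10. The array medians were 5.49 to 5.61 with TSA and 5.50 to 5.56 with vehicle.

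Both passing genes are members of a list of interferon-stimulated and antiviral genes, which was drawn up with earlier results of these data known. Fv1, which in mice encodes a retroviral-capsid-like factor that restricts murine leukaemia viruses, had levels of 6.80, 7.27 and 6.82 on the TSA arrays, against 6.08, 6.15 and 6.17 on the vehicle arrays. Every TSA array lay above every vehicle array, and TSA replicate 2 was the highest. Fv1 rose by 0.83 ± 0.13 (SE), a 1.78-fold change (adjusted p = 0.0303). The 2 naive arrays, which belong to no pair, read 6.69 and 6.82 for Fv1, above all 3 vehicle arrays and close to TSA replicates 1 and 3. With the naive arrays joined to the vehicle arrays as controls and no pairing, the Fv1 difference was 0.58 and did not pass (adjusted p = 0.935).

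Ptpn2 encodes a tyrosine phosphatase that removes phosphate from JAK and STAT proteins and so damps interferon and cytokine signalling. Its levels were 6.06, 6.16 and 6.64 on the TSA arrays, against 6.88, 6.84 and 6.99 on the vehicle arrays. All TSA arrays lay below all vehicle arrays, with the smallest paired difference in pair 3. Ptpn2 fell by 0.61 ± 0.10, which is 1.53-fold lower (adjusted p = 0.0303). Both naive arrays, at 6.96 and 6.83, lay above all TSA arrays. A second transcript cluster of Ptpn2 on the array had paired differences of -0.46, -0.32 and -0.60. When clusters of a gene were averaged, Ptpn2 was lower by 0.54 and no longer passed (adjusted p = 0.349).

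The remaining 29 of the 31 measured members of that list did not pass, and the list's median was -0.04, against 0.00 for all genes. Ifit1, which interferon induces, differed by -0.17, and Irf3, which switches interferon genes on, by 0.17, with adjusted p = 0.997 and 0.970. Both calls rest on few arrays. Without TSA replicate 1, TSA replicate 2, vehicle replicate 3 or vehicle replicate 4, 0 genes passed. Without TSA replicate 3 only Ptpn2 passed, and without vehicle replicate 5 only Fv1 did. Without the pairing 0 genes passed and 263 had an unadjusted p under 0.05.

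**Figure D1:**
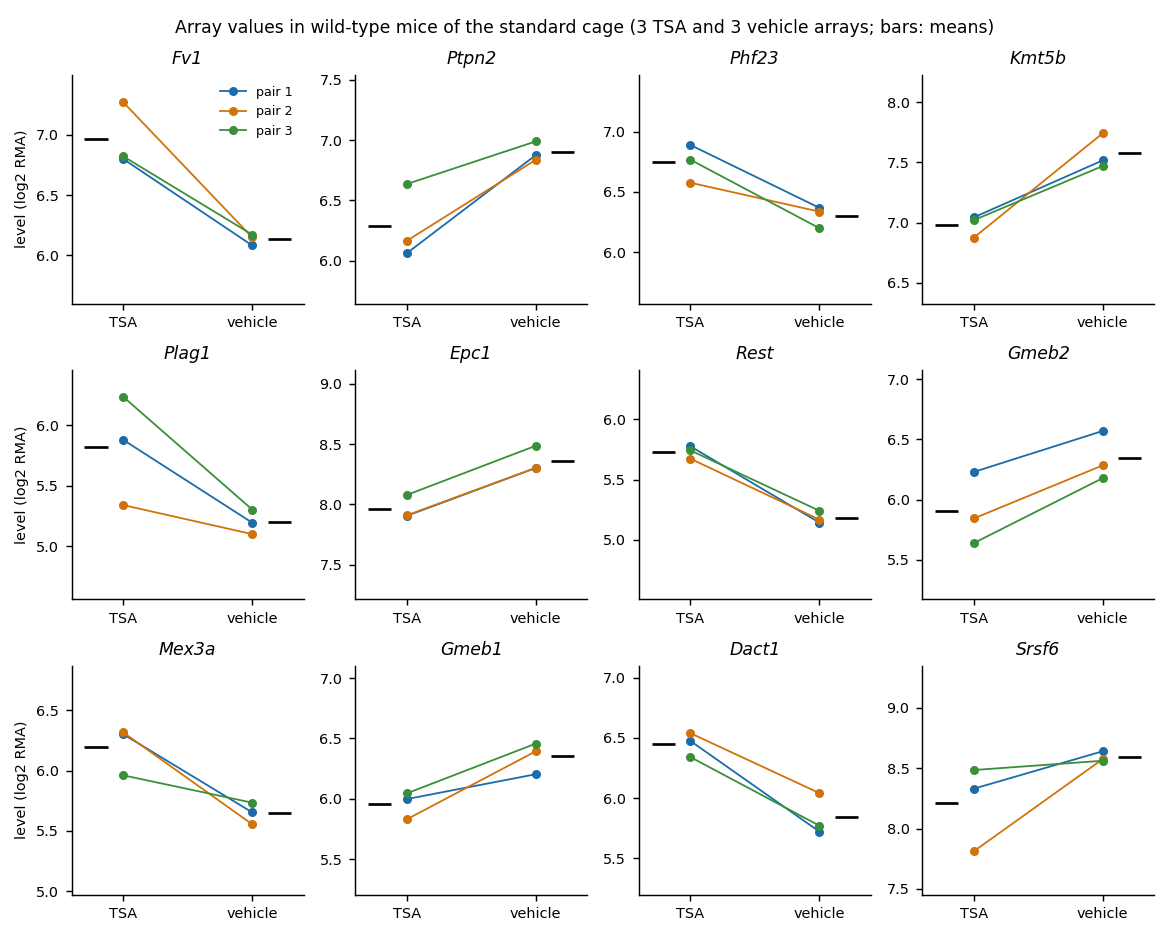
Levels (log2 RMA, vertical axis) of 12 genes on the 3 TSA arrays (left) and the 3 vehicle arrays (right) of wild-type mice in the standard cage; lines join the arrays of a pair, black bars are group means, and every panel spans the same range. Of these genes only Fv1 and Ptpn2 passed the test. The lines of Rest and Epc1 run nearly parallel, while those of Plag1 and Srsf6 differ between pairs.

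The 22 genes with the next smallest p are described without a call, since their adjusted p lay between 0.242 and 0.401. With Fv1 and Ptpn2 they make 24 genes, of which 14 were higher and 10 lower with TSA, by 0.33 to 0.83 in size. TSA arrays lay wholly above vehicle arrays for 12 of the 14 and wholly below for 9 of the 10. That count follows from choosing genes by p, and over all genes 2.21% lay wholly above and 1.83% wholly below.

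Among the higher genes, Plag1, a zinc-finger transcription factor of embryonic growth, had 5.88, 5.34 and 6.24 with TSA, against 5.19, 5.10 and 5.30 with vehicle. Its groups did not overlap, but the paired differences of 0.69, 0.24 and 0.94 varied widely around a mean of 0.62 ± 0.14. The naive arrays, at 5.59 and 5.52, lay between the lowest TSA array and the others.

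Mex3a, an RNA-binding ubiquitin ligase, had 6.30, 6.32 and 5.96 with TSA, against 5.65, 5.56 and 5.73 with vehicle (difference 0.55 ± 0.13). Its relative Mex3b, named after its value was seen, differed by -0.03 ± 0.13. Mknk2, a kinase that phosphorylates the cap-binding translation factor eIF4E, had 7.78, 7.55 and 6.99 with TSA, against 7.25, 6.85 and 6.64 with vehicle. These groups overlapped, because the arrays of set 3 were low in both, while each pair showed TSA above vehicle. Phf23 (0.44 ± 0.10) and Phf13 (0.43 ± 0.11), both PHD-finger proteins that bind methylated histone H3, were higher in all 3 pairs. The remaining higher genes were Dennd3 (0.46), Tuft1 (0.46), Tmem177 (0.42), the membrane-fusion syntaxin gene Stx2 (0.36), Serpina1c (0.58), Olfr330 (0.54) and the precursor cluster of Mir18 (0.44).

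Among the lower genes, Kmt5b encodes a methyltransferase that adds methyl groups to lysine 20 of histone H4. It had 7.04, 6.88 and 7.02 with TSA, against 7.52, 7.74 and 7.47 with vehicle, a 1.51-fold lower level (-0.60 ± 0.12, adjusted p = 0.242). All TSA arrays lay below all vehicle arrays, and below the naive arrays at 7.96 and 7.93. Epc1, a scaffold subunit of the NuA4 acetyltransferase complex, had 7.91, 7.91 and 8.08 with TSA, against 8.30, 8.30 and 8.49 with vehicle, with paired differences that were nearly the same (-0.40 ± 0.09).

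Gmeb1, a DNA-binding protein of glucocorticoid-responsive promoters, had levels of 5.83 to 6.04 with TSA, against 6.20 to 6.46 with vehicle (-0.40 ± 0.10). Its partner Gmeb2 had 6.23, 5.84 and 5.64 with TSA, against 6.57, 6.29 and 6.18 with vehicle (-0.44 ± 0.12, adjusted p = 0.507). Both partners were lower in every pair, although the Gmeb2 groups overlapped. The other lower genes were Nrde2 (-0.44), Fbxl4 (-0.43), the mitochondrial RNA-binding gene Fastkd2 (-0.41), Zfp341 (-0.39), Wdr36 (-0.37), which acts in ribosome assembly, and Fdxacb1 (-0.33).

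The 24 genes were then read in the 18 injected arrays that these 6 do not include, as the mean TSA effect over the other 3 backgrounds. That comparison was added after the values were seen. In it 23 of the 24 had the same sign, 21 had the same sign in each of the 3 backgrounds, and 19 passed on their own in the same direction. Over all genes 1.47% passed as higher and 0.988% as lower there.

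Fv1 differed by 0.93 in cbp+/- mice of the standard cage, by 0.57 in wild-type mice after novelty and by 0.37 in cbp+/- mice after novelty. Kmt5b differed by -0.56, -0.53 and -0.50 in the same order, close to the value in the wild-type cage. Plag1 differed by 0.46, 0.89 and 0.94, and Ptpn2 by -0.31, -0.53 and -0.26.

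Serpina1c, Olfr330 and Mir18 had values near 0 elsewhere, and were singled out after their values were seen. Serpina1c, one of a family of near-identical antitrypsin genes whose probes may cross-react, had 3.80, 3.70 and 3.89 with TSA, against 3.15, 3.24 and 3.28 with vehicle. Its groups lay well apart in the wild-type cage, but naive replicate 1 (3.79) read with TSA and naive replicate 2 (3.17) with vehicle. The other backgrounds gave -0.08, -0.16 and -0.12. The difference of the 2 effects was 0.70 (95% interval 0.42 to 0.98, adjusted p = 0.614), and it had the smallest p of the 19938 such differences. The olfactory receptor gene Olfr330 (0.54 in the wild-type cage and 0.09 elsewhere) and Mir18 (0.44 and 0.03) had differences of effects that did not pass either.

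**Figure D2:**
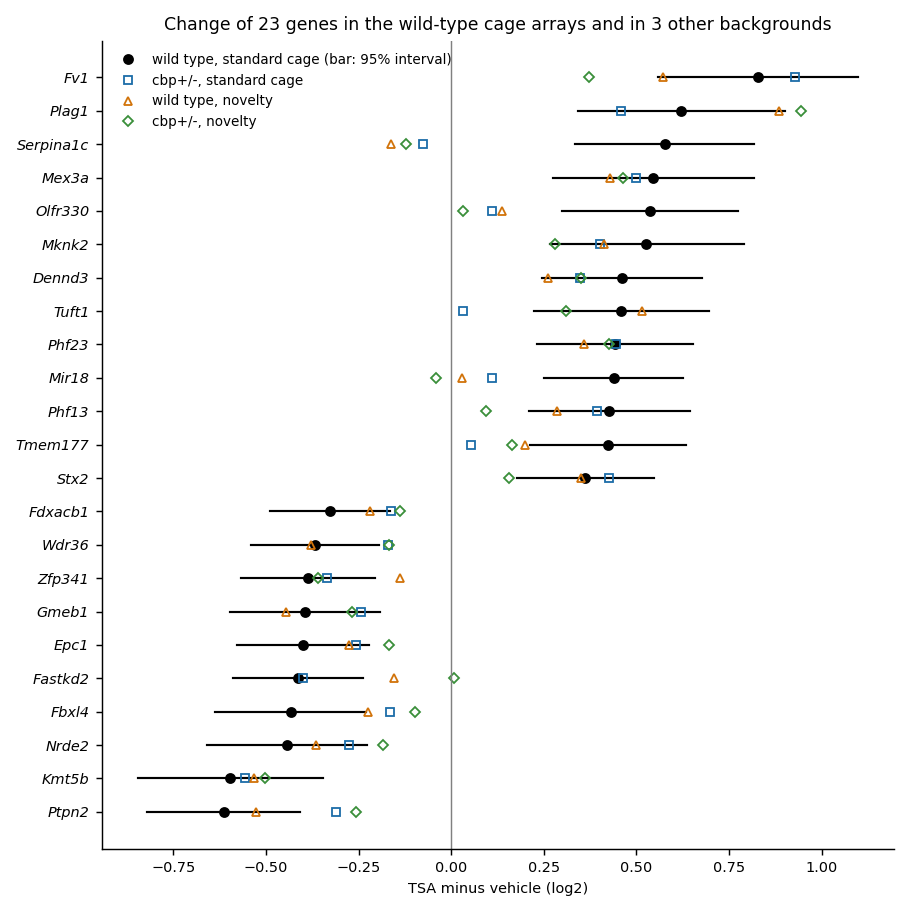
Change with TSA (TSA minus vehicle, log2, horizontal axis) of 23 of the 24 genes in wild-type mice of the standard cage (black, with 95% intervals) and in the other 3 backgrounds (open symbols). All 3 open symbols lie on the side of the black point for 20 of the genes shown; Serpina1c, Mir18 and Fastkd2 are the others.

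No gene could be shown to respond differently in the wild-type cage than elsewhere. For wild type against cbp+/- in the standard cage, 0 of 19938 differences of effects passed the limma test and 404 had an unadjusted p under 0.05. For standard cage against novelty within wild type the counts were 0 and 696. Against the mean of the other 3 backgrounds they were 0 and 490. The median SE of a difference of effects was 0.15 for the first of these and 0.12 for the last. Differences several times their SE did not pass either, as that of Serpina1c shows.

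The 491 genes that passed in the other 3 backgrounds give the widest view of the wild-type cage arrays, because none of these 6 arrays enters the effect that chose them, although all 24 arrays share the estimate of the spread. Of 294 genes called higher there, 279 (94.9%) were also higher in the wild-type cage. Of 197 called lower, 180 (91.4%) were also lower. Over all genes 50% lay on either side.

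TSA was above vehicle in all 3 pairs for 176 of the 294 (59.9%), against 11.4% of all genes. It was below in all 3 pairs for 93 of the 197 (47.2%), against 10.5% of all genes. TSA arrays lay wholly above vehicle arrays for 48 of the 294 (16.3%), and wholly below for 30 of the 197 (15.2%). These shares were well above the 2.21% and 1.83% of all genes.

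The changes in the wild-type cage were smaller than those that chose the genes. The median was 0.18 for the higher genes, against 0.27 in the backgrounds they were chosen in, and -0.17 for the lower genes, against -0.26. Values that serve to choose genes tend to run high, and how much of the gap this makes was not tested. The higher genes had medians of 0.20, 0.21 and 0.16 in pairs 1, 2 and 3. The lower genes had -0.12, -0.32 and -0.10, so pair 2 showed them most.

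**Figure D3:**
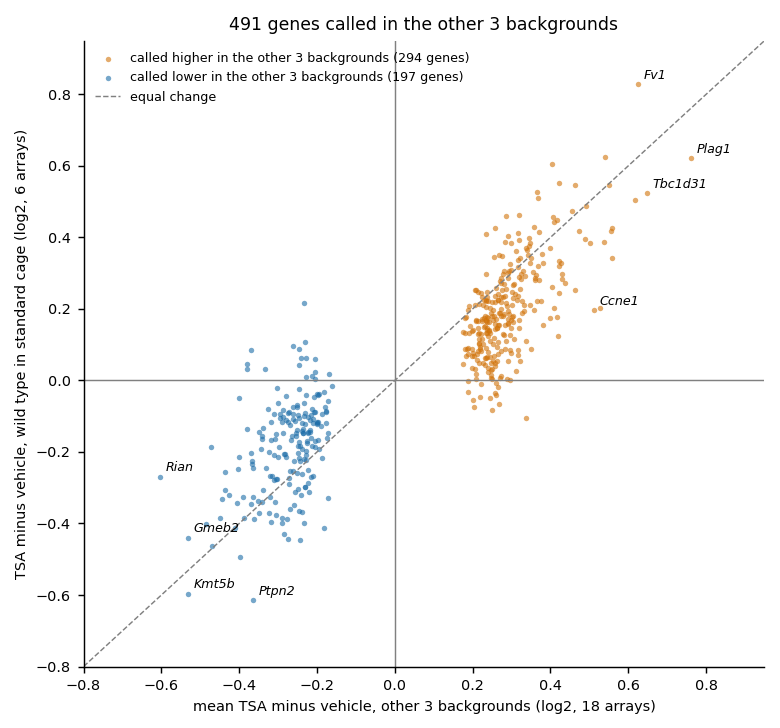
Each of 491 genes called in the other 3 backgrounds, with its mean TSA effect there (log2, 18 arrays, horizontal axis) and its effect in the wild-type cage (log2, 6 arrays, vertical axis); the dashed line marks equal effects. Of the 294 higher genes 279 lie above 0 on the vertical axis, of the 197 lower genes 180 lie below it, and most points lie nearer to 0 than the dashed line.

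Of 34 measured genes in the list of developmental regulators of neurons and growth, 0 passed in the wild-type cage, 7 were higher and 1 lower in all 3 pairs (11.4% and 10.5% of all genes were), and the median was 0.06. The genes described next come from that list or from those called higher in the other backgrounds, which were mostly higher here whatever their role. Rest had 5.78, 5.67 and 5.74 with TSA, against 5.14, 5.17 and 5.24 with vehicle (0.55 ± 0.14, adjusted p = 0.401). The groups lay well apart, the naive arrays (5.20 and 5.11) stood with vehicle, and the other backgrounds gave a mean of 0.55. Dact1, a regulator of Wnt signalling, had 6.48, 6.54 and 6.34 with TSA, against 5.72, 6.04 and 5.77 with vehicle (0.61 ± 0.15).

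Sox11, a transcription factor of newborn neurons, had 7.36, 7.40 and 7.56 with TSA, against 6.85, 6.99 and 6.96 with vehicle (0.51 ± 0.14). Again no TSA array reached down to a vehicle array. The growth factor gene Fgf9 was higher by 0.43 ± 0.12, the erythropoietin receptor gene Epor by 0.47 ± 0.14 and the centrosomal gene Tbc1d31 by 0.52 ± 0.15, each higher in all 3 pairs. The Fgf9 and Tbc1d31 groups overlapped. Naive arrays lay above all vehicle arrays for Sox11 (7.09 and 7.19) and Tbc1d31 (6.40 and 6.49). For Fgf9 (7.78 and 7.76) they lay within both groups. Those of Epor (5.84 and 5.99) and Dact1 (5.67 and 5.70) read like vehicle or lower. Other genes of the response had small values in the wild-type cage. Ccne1 (cyclin E1) differed by 0.20 ± 0.10, against 0.51 elsewhere. Prokr2 differed by 0.20, against 0.53, and the long non-coding RNA Rian by -0.27, against -0.60. Their differences of effects did not pass, and these 3 genes were named after their values were seen.

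Promoter sequences show how these genes differ in base composition. RefSeq promoters of build GRCm38.p6 (250 bases before to 50 after the start) were found for 238 of the 294 higher genes and 163 of the 197 lower genes. The GC box GGGCGG, the letters bound by Sp1-family factors, was searched on both strands. It was present in 76.6% of 312 promoters of the higher genes, in 60.9% of 207 promoters of the lower genes, in 49.2% of promoters of the tested genes and in 35.7% of all 32851 promoters. The median GC content was 64.3% for the higher genes, 59.0% for the lower genes and 57.3% for the tested genes, and richer sequence holds more such letters by composition alone. CCAAT (either strand) was in 43.6%, 39.6% and 37.4% of these, and TATAAA in 5.77%, 7.73% and 11.5%. A match is a description of letters and not a site of binding. The sequences below show 3 genes with higher and 1 with lower levels, with GC boxes and CCAAT boxes of either strand in capitals. Fv1 lies at chr4:147868729-147869028 (+), Mex3a at chr3:88531696-88531995 (+), Sox11 at chr12:27342669-27342968 (-), and Kmt5b, by the second of its RefSeq promoters, at chr19:3767639-3767938 (+).
Fv1: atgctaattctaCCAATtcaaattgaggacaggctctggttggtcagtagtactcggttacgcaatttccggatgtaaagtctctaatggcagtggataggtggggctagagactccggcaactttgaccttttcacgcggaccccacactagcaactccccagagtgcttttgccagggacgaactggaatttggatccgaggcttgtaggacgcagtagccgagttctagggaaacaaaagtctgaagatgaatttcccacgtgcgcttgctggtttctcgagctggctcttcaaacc
Mex3a: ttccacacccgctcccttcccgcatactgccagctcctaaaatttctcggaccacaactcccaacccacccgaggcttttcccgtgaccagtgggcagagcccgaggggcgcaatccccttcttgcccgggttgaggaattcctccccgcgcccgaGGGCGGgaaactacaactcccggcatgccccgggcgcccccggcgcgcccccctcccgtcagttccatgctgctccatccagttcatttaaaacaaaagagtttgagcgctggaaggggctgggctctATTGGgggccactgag
Sox11: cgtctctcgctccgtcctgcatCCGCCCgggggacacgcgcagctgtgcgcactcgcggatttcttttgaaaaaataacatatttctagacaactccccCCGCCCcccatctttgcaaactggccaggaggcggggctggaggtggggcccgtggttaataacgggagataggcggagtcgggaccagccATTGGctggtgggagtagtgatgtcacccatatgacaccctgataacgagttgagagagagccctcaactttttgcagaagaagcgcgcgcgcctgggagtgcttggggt
Kmt5b: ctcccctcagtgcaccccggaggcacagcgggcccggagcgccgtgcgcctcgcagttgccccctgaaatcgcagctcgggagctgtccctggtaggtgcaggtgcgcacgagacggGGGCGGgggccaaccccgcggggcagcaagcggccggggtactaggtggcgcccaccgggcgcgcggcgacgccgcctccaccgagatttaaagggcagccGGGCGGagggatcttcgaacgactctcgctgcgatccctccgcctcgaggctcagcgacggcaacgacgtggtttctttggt
The Fv1 promoter had 50% GC, 0 GC boxes and 1 CCAAT box, apart from most of the higher genes. Mex3a had 1 GC box and 1 CCAAT box, Sox11 had 2 and 1, and the Kmt5b promoter shown had 71.3% GC, 2 GC boxes and no CCAAT box. The other RefSeq promoter of Kmt5b had 57.3% GC, the median of the tested genes, and 1 GC box.

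None of the measured neighbours on the chromosome of the genes described passed, with differences of -0.375 (Swsap1, next to Epor) to 0.27 (Dvl2, next to Phf23). Beside Fv1, Miip differed by 0.11 and Mfn2 by -0.02, and beside Ptpn2, Psmg2 differed by 0.18 and Seh1l by -0.14. These were smaller than the changes of Fv1 and Ptpn2, which follows largely from choosing those genes because they passed. Some genes with small changes of their own had neighbours that differed by more, such as Marcks (-0.28) beside Hdac2 and Marcksl1 (-0.24) beside Hdac1. In the other backgrounds Seh1l (-0.24), Mob3a (0.27, beside Mknk2) and Lmna (0.26, beside Mex3a) passed, and all other measured neighbours did not. Over all genes 1.47% passed as higher and 0.988% as lower there. Whether neighbours passed more often than these shares was not tested.

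The enzymes TSA acts on showed no called change of their own RNA. Of 11 zinc-dependent deacetylase genes, 0 passed and 8 had positive differences, with a median of 0.14, against 0.00 for all genes. In all 3 pairs 4 of the 11 were higher, where 11.4% of all genes were. The median was 0.04 in the other backgrounds, where 1 of the 11, Hdac1, passed as higher (0.25). Of all genes 1.47% passed as higher there. Hdac1 had 8.20, 8.18 and 8.54 with TSA, against 8.06, 7.97 and 8.39 with vehicle (0.17 ± 0.09). The Hdac1 groups overlapped, but each pair gave a similar difference, and a second cluster of the gene gave the same mean of 0.17. Hdac3 differed by 0.20 ± 0.11 and Hdac2 by -0.18 ± 0.14.

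The opposing enzymes leaned the other way. Of 14 lysine acetyltransferase genes 0 passed, 13 had negative differences and 8 were lower in all 3 pairs, where 10.5% of all genes were. The list's median was -0.13 (medians by pair of -0.06, -0.21 and -0.10), and it was -0.05 in the other backgrounds, where 0 of the 14 passed. The lowest were Kat2b (-0.32 ± 0.11), which encodes PCAF, and Kat6b (-0.25 ± 0.10). Crebbp had 9.19, 9.42 and 8.68 with TSA, against 9.37, 9.55 and 9.06 with vehicle (-0.23 ± 0.12, adjusted p = 0.945). Its groups overlapped, with TSA lower in each pair, and Crebbp differed by 0.00 in the mean of the other backgrounds. Ep300 differed by -0.04 ± 0.11.

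A list of acetyltransferase complex subunits and some of their relatives was measured as well. Of its 38 genes 0 passed and 9 were lower in all 3 pairs (10.5% of all genes were). There were 17 positive and 21 negative differences, with a median of -0.05. Ing5, a PHD-finger subunit of the MOZ and HBO1 complexes, had 6.44, 6.09 and 5.96 with TSA, against 6.90, 6.65 and 6.18 with vehicle (-0.41 ± 0.14). Each pair was lower while the groups overlapped. Epc2, the relative of Epc1, had 7.90, 7.11 and 7.57 with TSA, against 7.73, 7.85 and 8.15 with vehicle, so pair 1 went the other way (-0.39 ± 0.14). In the other backgrounds 6 of the 38 passed as lower (Epc1, Epc2, Ing3, Ing5, Sgf29 and Yeats4), where 0.988% of all genes did. As higher 1 passed, where 1.47% of all genes did, namely Ing1, which is in the list as a relative of Ing3 and Ing5. The 6 had differences of -0.12 to -0.41 in the wild-type cage, a direction that 91.4% of all genes called lower there share. They were named after their values were seen.

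Of 23 bromodomain genes, the readers of acetyl-lysine, 0 passed and 10 were lower in all 3 pairs (10.5% of all genes were), with a median of -0.10. In the other backgrounds their median was -0.01, and 2 passed as higher and 0 as lower, where 1.47% and 0.988% of all genes did. Atad2, an ATPase with a bromodomain, stood out from them at 0.51 ± 0.16, with 5.83, 5.84 and 5.96 with TSA, against 4.83, 5.59 and 5.67 with vehicle. Its TSA arrays all lay above its vehicle arrays, but the size rests on the low value of vehicle replicate 3. Without pair 2 the medians were -0.05 for the bromodomain genes and -0.08 for the acetyltransferases.

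Of 34 corepressor subunit genes 0 passed, with a median of 0.00. In the other backgrounds 6 passed as higher and 0 as lower, where 1.47% and 0.988% of all genes did. As 94.9% of all genes called higher there did, those 6 had positive differences in the wild-type cage, namely Rest (0.55), Rcor1 (0.33), which encodes CoREST, Sin3a (0.27), Rcor2 (0.18), Sap30l (0.13) and Gatad2a (0.05). The neuronal genes that REST is known to repress had a median of -0.01 over 23 members, with 0 passing.

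**Figure D4:**
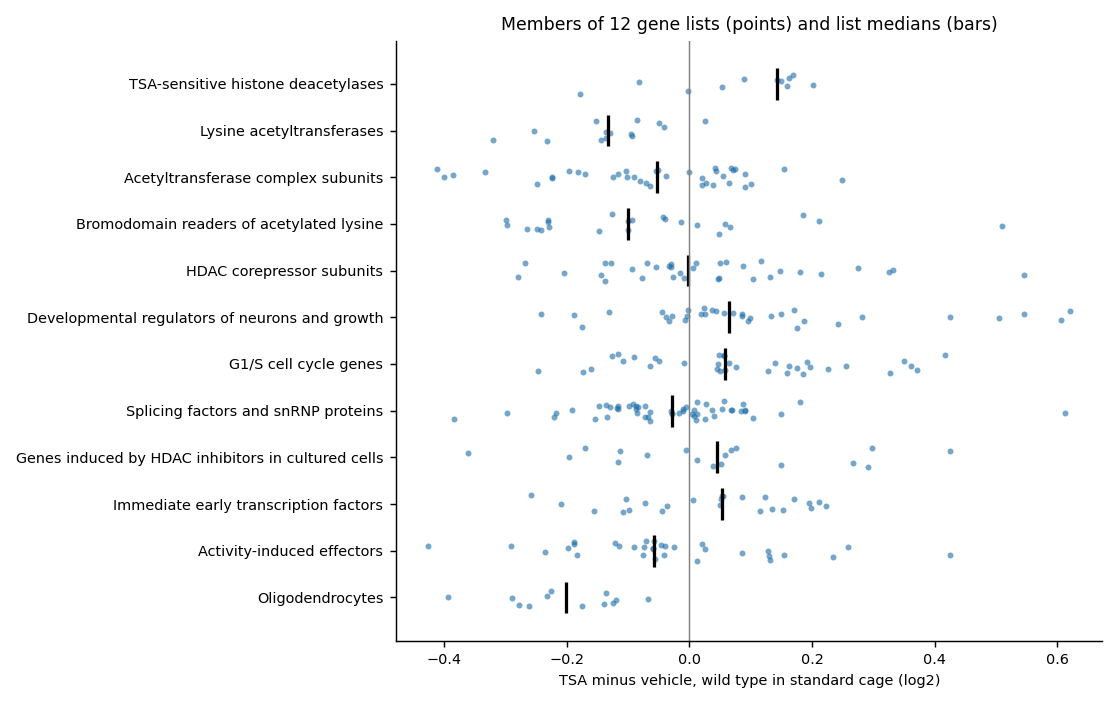
Difference of each member (points) of 12 gene lists in the wild-type cage (TSA minus vehicle, log2, horizontal axis), with list medians as black bars. Medians run from -0.20 for oligodendrocyte markers to 0.14 for the deacetylases, and most points lie within 0.3 of 0.

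Genes of the G1/S transition were higher more often than lower, although 0 of 35 passed. TSA was above vehicle in all 3 pairs for 13 of them and below for 2 (11.4% and 10.5% of all genes), with a median of 0.06. Cdc25a, the phosphatase that activates cyclin-dependent kinases, had 6.27, 6.10 and 6.46 with TSA, against 5.71, 5.93 and 5.93 with vehicle (0.42 ± 0.12). Its groups did not overlap. Ccne2 (cyclin E2) had 0.37 ± 0.11 and Cdk2 0.23.

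Of 53 splicing factor genes 0 passed, and 7 were lower and 4 higher in all 3 pairs, close to the 10.5% and 11.4% of all genes. Their median was -0.03, with medians of 0.05, -0.16 and 0.02 in pairs 1, 2 and 3. The largest change in the list was a rise, that of Tra2a (0.61). Srsf6, a splicing activator, had 8.33, 7.81 and 8.49 with TSA, against 8.64, 8.58 and 8.56 with vehicle (-0.38 ± 0.12). Its TSA arrays all lay below its vehicle arrays, with pair 2 giving most of the difference. In the other backgrounds 7 of the 53 passed as lower and 0 as higher, where 0.988% and 1.47% of all genes did. The 7 had differences of -0.09 to -0.38 here, again the direction of 91.4% of all genes called lower there. Without pair 2 the median of the whole list was 0.04.

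Activity-regulated genes, which neurons induce within minutes of firing, were not called. Of 24 immediate early transcription factors 0 passed, with a median of 0.05. In all 3 pairs 6 of the 24 were higher and 1 was lower, where 11.4% and 10.5% of all genes were. Fos had 5.71, 5.34 and 5.23 with TSA, against 5.72, 5.30 and 5.89 with vehicle (-0.21 ± 0.20). Only pair 3 differed for Fos. Npas4 was lower in all 3 pairs (-0.26 ± 0.12, adjusted p = 0.923), and so was the synaptic gene Arc (-0.24 ± 0.13). Arc belongs to 32 activity-induced effectors, of which 3 were higher and 6 lower in all 3 pairs. Egr1 differed by 0.05 ± 0.13, Egr2 by -0.11 ± 0.16, Nr4a1 by -0.10 ± 0.14 and Nr4a2 by 0.09 ± 0.09. Bdnf, a neurotrophin gene raised by deacetylase inhibitors in several studies, had 6.30, 6.37 and 6.65 with TSA, against 6.53, 6.31 and 6.66 with vehicle. Its groups overlapped (-0.06 ± 0.09, with a 95% interval of -0.25 to 0.13).

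Genes often raised by deacetylase inhibitors in cultured cells had a median of 0.05 over 18 measured members, and 0 passed. Gadd45b, a stress and DNA-demethylation factor, was highest at 0.43 ± 0.14, with 8.10, 7.75 and 7.84 with TSA, against 7.52, 7.05 and 7.84 with vehicle. Pairs 1 and 2 carried that value and pair 3 showed no difference. Txnip, a thioredoxin inhibitor, was lowest at -0.36 ± 0.15. Siah1b, a ubiquitin ligase gene, differed by -0.31 ± 0.12, while Siah2 differed by 0.05. Cdkn1a and H1f0 were not analysed here.

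Heat shock genes had a median of -0.01 over 20 members, unfolded protein response genes 0.07 over 22, glucocorticoid-induced genes -0.01 over 24 and clock genes 0.01 over 20, with 0 passing in each. Ion channel and receptor genes lay close to 0 as well, with medians of -0.03 for 31 glutamate and GABA receptor subunits, -0.05 for 24 sodium, calcium and HCN channels and 0.00 for 87 potassium channels. Oxidative phosphorylation subunits had a median of -0.05 over 80 genes and cytosolic ribosomal proteins -0.06 over 59. The 44 histone genes had a median of 0.02, with H4c3 highest at 0.43 ± 0.16 and H2bc4 lowest at -0.31 ± 0.12. Of the chromatin lists not yet given, lysine methyltransferases had a median of 0.01 over 29 genes and demethylases 0.00 over 23, while sirtuins had -0.05 over 7, with Sirt7 highest (0.27 ± 0.13) and Sirt1 lowest (-0.32 ± 0.14). Wnt and Notch genes had 0.07 over 32, activity-induced effectors -0.06 over 32, Mediator and TFIID subunits 0.03 over 49 and ubiquitin ligases and deubiquitinases -0.04 over 29. Protocadherins had -0.03 over 34, Zfp zinc finger genes 0.00 over 317 and small RNAs -0.06 over 64. In these lists too 0 genes passed. The 1178 olfactory and vomeronasal receptor genes, mostly silent in brain, had a median of 0.00.

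The pairs did not weigh evenly. The SD of the paired difference across genes was 0.17 in pair 1, 0.26 in pair 2 and 0.22 in pair 3. Across the 19938 genes, which are not independent, the differences of pairs 1 and 2 correlated at -0.02, of pairs 1 and 3 at 0.18, and of pairs 2 and 3 at -0.28. The summed pattern of a single pair was thus mostly not shared with the next.

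Markers of oligodendrocytes, the myelin-forming cells, moved most with 1 array. Their mean level over 12 genes was 8.27, 7.70 and 8.22 on the TSA arrays, against 8.42, 8.35 and 8.04 on the vehicle arrays. TSA replicate 2 was the low one. All 12 had negative mean differences (median -0.20) and 0 of the 12 were lower in all 3 pairs. Pair medians were -0.17, -0.70 and 0.19, and without pair 2 the list's median was 0.00. Ugt8a, of myelin lipid synthesis, differed by -0.39 ± 0.14 and Mbp by -0.07 ± 0.10.

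Endothelial and pericyte markers were also low on TSA replicate 2, at 6.94, against 7.03 to 7.29 on the other 5 arrays. This array was also the lowest for dentate granule neuron (7.45), interneuron (7.93), astrocyte (8.73) and microglia (6.54) markers. Against the mean of all 28 arrays, its oligodendrocyte markers lay at -0.38. On TSA replicate 2 of the other groups they lay at -0.34 (wild type, novelty), -0.19 (cbp+/-, cage) and -0.13 (cbp+/-, novelty). The vehicle arrays of the same set lay at -0.09, -0.14 and -0.06 in that order, and vehicle replicate 4 of the wild-type cage at 0.26. The cbp+/- arrays of this set thus differed little between TSA and vehicle. Neuronal markers of the hippocampus were measured on all 6 arrays, with mean levels of 9.01 to 9.36 (TSA) and 8.95 to 9.35 (vehicle) for CA1 and CA3 pyramidal neurons, and 7.45 to 7.52 (TSA) and 7.46 to 7.66 (vehicle) for dentate granule neurons. Choroid plexus markers lay at 5.02 to 5.06 with TSA and 4.97 to 5.02 with vehicle. Their raised values in the series were on arrays of other groups, and without 3 such arrays the genes called in the other backgrounds were 181, of which 94.5% had the same sign here. The medians of the other marker lists lay between -0.08 and 0.06. Over the marker lists 0 genes passed. The part of these cell type values in the lower genes of pair 2 was not tested.

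**Figure D5:**
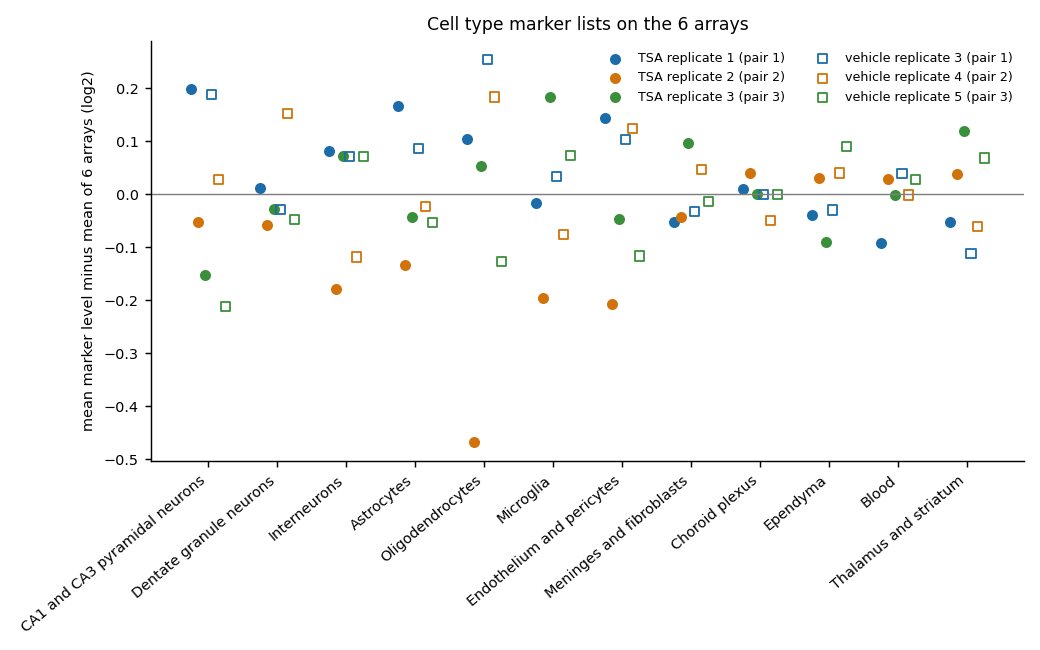
Mean level of each cell type marker list on each of the 6 arrays, relative to the mean of the 6 (log2, vertical axis); filled circles are TSA arrays, open squares vehicle arrays, and colours mark pairs. TSA replicate 2 lies lowest for oligodendrocytes, endothelium and pericytes, dentate granule neurons, interneurons, astrocytes and microglia. The 3 TSA arrays do not stand together on the oligodendrocyte list.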

How the data were processed

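Per the labels' protocols, RNA of individual hippocampi was pooled and hybridized to Affymetrix Mouse Gene 1.0 ST arrays, and the authors processed the data in GeneSpring GX 11. The deposited values are log2 levels, made with RMA per the submitters' processing notes. Of 35556 transcript clusters 21789 had 1 symbol, giving 19938 genes, each by its brightest cluster.

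The 24 injected arrays were fitted with limma 3.58.1 in R 4.3.3, with a mean per group and array set (3 levels) as a block, two-sided, with Benjamini-Hochberg adjustment over 19938 genes at 0.05; the steps were tested on simulated data. The pairing rests on the data, not the labels: deviations from group means correlated at 0.67, 0.43 and 0.66 within pairs and at -0.56 to -0.02 otherwise. Deviations within a group cancel out, so positive values within pairs make the others negative on average. The pairing was known from an earlier look at these data, so these values are not separate support for it. Arrays are separate pools, and the number of arrays limits precision.

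The named genes were those passing and the smallest p after them, up to 24, the 2 highest and 2 lowest members of each of 45 gene lists, and a fixed set; predicted genes were not named, and 1 of the 24 is not reported here. Members, lists and comparisons were chosen with earlier results of these data known. RefSeq tables of GRCm38.p6 served for names, neighbours and promoters. The alternatives were other blocks, array subsets, weights, filters, normalization and leaving out arrays.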

Additional observations from a re-analysis of the deposited data

How the results depend on the processing

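In the wild-type cage 2 genes passed in the chosen fit. No gene passed (0) without a replicate block over 24 arrays or over all 28 arrays with naive and vehicle as 1 control group, with the block in only the 6 arrays or the 12 wild-type arrays (616 and 918 genes at an unadjusted p under 0.05), with all clusters tested together, without the 3 arrays with raised choroid plexus markers, or without array set 1, 2 or 3 (0 each). One gene (1) passed with clusters averaged, 8 with the replicate block over all 28 arrays and 27 with array quality weights (17 higher and 10 lower). Leaving out 1 array or 1 pair gave 0 to 1. Fv1 ranged from 0.58 to 0.93 and Ptpn2 from -0.74 to -0.51 over 21 alternatives, each past the threshold in 7. The 24 named genes had the same sign as in the chosen fit in all 501 of their values over these alternatives. That follows largely from choosing them by p on the same arrays, and it is not separate support.

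The 491 genes called in the other 3 backgrounds became 20 without the replicate block, 40 without it over 28 arrays, 181 without the 3 choroid plexus arrays, and 38, 131 and 161 without array sets 1, 2 and 3. The share with the same sign in the wild-type cage, 93.5%, was 100%, 100%, 94.5%, 100%, 87.8% and 95% there, and 84.3% with array weights. The counts of the differences by genotype and by housing stayed at 0 in all alternatives run, and that against the mean of the other 3 backgrounds was not rerun. The cause of these changes was not tested. The replicate block over 28 arrays, leaving out array sets and leaving out the choroid plexus arrays were chosen after seeing the data, as was the comparison with the other backgrounds. Median changes of the lists stayed within the spread of the pairs in 892 of 945 comparisons. The number of arrays limits the precision (median SE 0.10). In simulated data of the same comparison, 200 of 19938 genes were changed, by 0.5 log2 or by 1 log2. Of the 200, 64% were called at 0.5 log2 and 99.5% at 1 log2. In the measured data 17 genes differed by over 0.5 and 5 by under -0.5, and 2 genes passed. Recovery with fewer than 200 changed genes was not tested, so these shares are given for that setting only.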

Other observations

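The naive mice of the wild-type standard cage offer a further reading of the genes described above, as values only, since their 2 arrays have no partner in the array sets and were not injected. Fv1 read 6.69 and 6.82 there, with the TSA arrays rather than with vehicle. Kmt5b read 7.96 and 7.93, over all 6 injected wild-type cage arrays. Rest, at 5.20 and 5.11, and Ptpn2, at 6.96 and 6.83, read like vehicle. Whether injection or array set gives these positions cannot be told apart.

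Transcript clusters without a single gene symbol were tested as well. Of 13767 such clusters 0 passed (limma, lowest adjusted p = 0.468), and 619 (4.50%) had an unadjusted p under 0.05.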
